A study of Mus musculus with 6 samples.

Results

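Fatty acid oxidation in mitochondria and peroxisomes was followed through 30 genes, taken by symbol from a count table of 49585 genes. The set was listed by function, and no measured value enters that rule, but it was chosen with earlier results of these data known. It covers the carnitine shuttle (2 genes), the acyl-CoA dehydrogenases (7), the later mitochondrial steps (4), peroxisomal beta-oxidation (4), auxiliary enzymes for unsaturated acids (5), electron transfer (3), a ketone body enzyme (1), acyl-CoA thioesterases (2) and omega-oxidation (2). Of the 30 genes, 26 averaged 10 or more counts over the libraries and entered the test, which ran over 12130 genes. Bdh1 was below that minimum, and Etfb, Cyp4a10 and Cyp4a14 were listed at 0 in all 6 libraries.

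RNA was sequenced from AML12 cells, an immortalised mouse hepatocyte line derived from mice that carry a transgene for transforming growth factor alpha. One group received a construct with the open reading frame of Zac1, a zinc-finger transcription factor whose gene symbol is Plagl1 (libraries 4, 5 and 6). The other received a construct with the open reading frame of EGFP, a fluorescent protein (libraries 1, 2 and 3). Both were collected 24 h after transfection. The labels name neither the promoter of the constructs nor the share of cells transfected, and no sorting is mentioned, so each level is an average over all cells of a sample. Whether a group's libraries are separate cultures is not stated either; the p-values therefore rest on the spread among these samples, which could be technical.

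In beta-oxidation, an acyl-CoA is shortened by repeated rounds of dehydrogenation, hydration, a second dehydrogenation and thiolysis, each round releasing acetyl-CoA. Mitochondria take in long chains as carnitine esters and pass the electrons of the first step to the respiratory chain. Peroxisomes start the oxidation of very long and branched chains and hand the electrons of the first step to oxygen. In liver, the pathway supplies energy and ketone bodies during fasting, and many of its genes are known targets of the nuclear receptor PPARalpha.

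The libraries held 14801240 to 18302538 counts. Plagl1 was at 7538 ± 811 CPM (counts scaled to a common library total) in Zac1 cells and 4.14 ± 1.39 CPM in EGFP cells (SD, n = 3 each). The hepatocyte markers Alb, Apob, Hnf4a and Ttr were present. Apob, the highest, was at 1271 ± 145 CPM in Zac1 cells and 1356 ± 150 CPM in EGFP cells. Alb was at 34.7 ± 1.99 CPM in Zac1 cells and 34.7 ± 1.18 CPM in EGFP cells. Apoa1 and Serpina1a were near the count minimum of 10, with mean counts of 15.8 and 11.7. Of the 10 hepatocyte markers listed, Cyp2e1 was at 0 and Fgb, Trf and Cps1 were below the minimum. Of the 6 tested, Ttr fell, to 42.5 ± 4.47 CPM in Zac1 cells against 67.4 ± 2.71 CPM in EGFP cells (log2 fold change -0.67, adjusted p = 0.000211). The 4 cholangiocyte markers summed to 386 to 410 CPM in Zac1 libraries and 363 to 402 CPM in EGFP libraries, nearly all of it Krt19, Sox9 and Krt7, with Epcam at or near 0. The 5 stellate or fibroblast markers summed to 2.12 to 2.61 CPM in Zac1 libraries and 0.466 to 1.01 CPM in EGFP libraries, with Lrat at 0; the 1 tested, Col1a1, rose (log2 fold change 1.54, adjusted p = 0.0164). Those of macrophages, endothelium and adipocytes summed to at most 2.56 CPM in any library. The part of these markers in the results below was not tested. On the second principal component (15.5% of the variance) Zac1 4 and EGFP 1 stood apart, at 11.6 and 18.7, against -10.6 to -3.51 in the other libraries. They were both the highest or both the lowest library of their group in 14 of the 26 genes tested (53.8%, against 42.6% of all tested genes); calls that change without both are given beside the gene.

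Windows around 3 gene starts are shown because Hadha and Hadhb, the subunits of one enzyme, start head to head and share most of theirs, and because Acadm and Acadvl were the only genes of the set whose window held the letters AGGTCA, a half-site of nuclear receptors such as PPARalpha. Sequences are from RefSeq (GRCm38.p6), 250 bases before to 50 after the start, written 5′ to 3′ on the strand of the gene. In the Hadhb window, chr5:30155003-30155302 on the plus strand, capitals mark the 85 bases that lie between the annotated ends of Hadha and Hadhb. In the Acadm window, chr3:153944594-153944893, and the Acadvl window, chr11:70015379-70015678, both on the minus strand, capitals mark the match to AGGTCA or its complement TGACCT.
Hadhb: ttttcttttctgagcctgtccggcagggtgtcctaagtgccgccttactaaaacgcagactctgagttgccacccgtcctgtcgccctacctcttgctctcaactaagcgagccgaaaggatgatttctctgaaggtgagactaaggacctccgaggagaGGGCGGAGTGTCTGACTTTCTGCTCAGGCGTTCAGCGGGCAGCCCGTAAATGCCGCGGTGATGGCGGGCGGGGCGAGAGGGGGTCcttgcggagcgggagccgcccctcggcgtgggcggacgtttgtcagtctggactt
Acadm: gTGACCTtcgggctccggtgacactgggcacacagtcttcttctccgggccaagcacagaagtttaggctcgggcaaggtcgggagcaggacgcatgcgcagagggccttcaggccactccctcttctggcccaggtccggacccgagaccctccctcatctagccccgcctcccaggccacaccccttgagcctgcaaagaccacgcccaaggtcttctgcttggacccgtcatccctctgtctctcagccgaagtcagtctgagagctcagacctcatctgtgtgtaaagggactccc
Acadvl: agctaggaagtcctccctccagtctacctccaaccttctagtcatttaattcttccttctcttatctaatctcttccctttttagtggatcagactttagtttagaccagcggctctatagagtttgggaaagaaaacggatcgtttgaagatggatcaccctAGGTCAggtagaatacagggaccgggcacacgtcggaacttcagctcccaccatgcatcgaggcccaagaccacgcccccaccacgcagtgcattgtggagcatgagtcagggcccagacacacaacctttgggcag
Windows were found for 23 of the 30 genes (24 windows, since Bdh1 has 2). AGGTCA, searched on both strands, was in 2 of the 24 (8.33%), against 16.3% of 32851 mouse windows of the same length. A pair of such half-sites with 1 base between them (AGGTCANAGGTCA) was in 0 of 24 and in 0.0396% of all windows. The palindrome GGGGCCCC, which is bound by Zac1, was in 0 of 24 and in 1.08% of all windows. The median GC content was 59.5% in these windows and 52.7% in all windows. A missing match says only that these letters are not in this stretch.

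None of the 26 tested genes passed the test between Zac1 and EGFP cells (edgeR quasi-likelihood, Benjamini-Hochberg adjustment over all tested genes, adjusted p from 0.174 to 0.992). Over all tested genes, 3.78% passed, 3.12% as higher and 0.668% as lower in Zac1 cells. At an unadjusted p under 0.05 there were 2 of 26 (7.69%; Acot2 and Acadm), against 15.8% of all tested genes; DESeq2 also called 0. The log2 fold changes ran from -0.40 to 0.05 with a median of -0.04, beside a median of -0.002 over all tested genes, and the median standard error (SE) was 0.07, beside 0.08 over all tested genes. For 22 of the 26 genes (84.6%), the 95% interval lay within 1.25-fold either way, against 59% of all tested genes. For 25 of 26 (96.2%) it lay within 1.5-fold, against 81.1%. The 4 with a wider interval than 1.25-fold were Acot2, Acadm, Acad11 and Ehhadh.

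**Figure D1:**
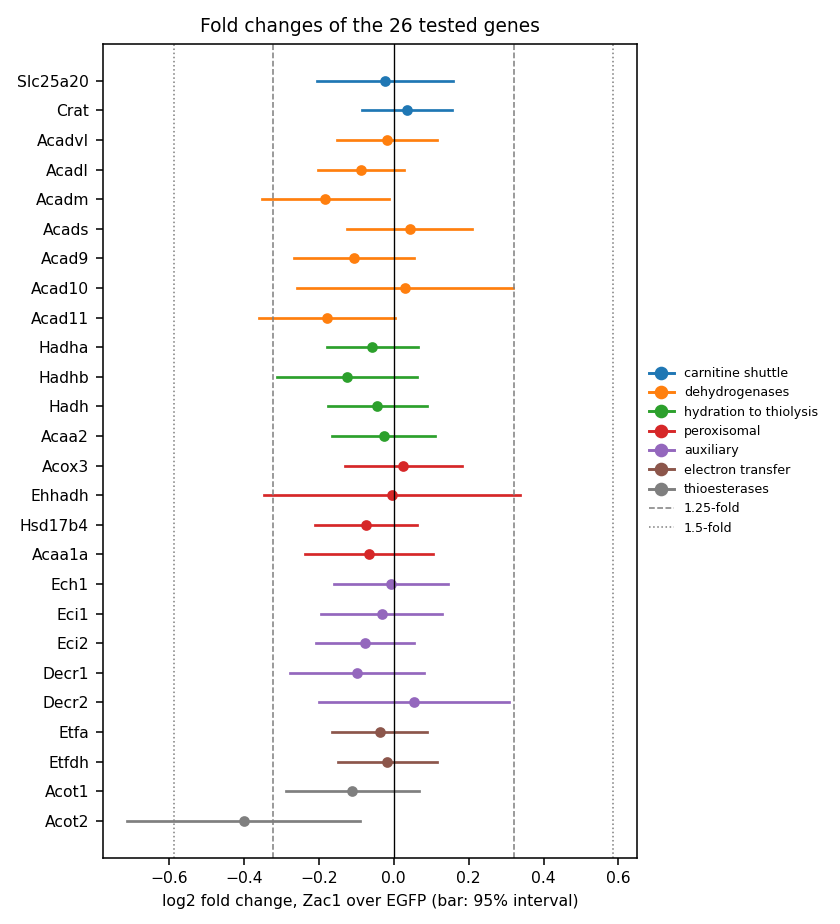
Fitted log2 fold change (Zac1 over EGFP) of each of the 26 tested genes on the x axis, ordered by step down the page, with bars for the 95% interval of the fit and dashed and dotted lines at 1.25-fold and 1.5-fold. Acot2 lies lowest at -0.40 and 25 of the 26 intervals stay inside the dotted lines.

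Most differences lay on the low side of 0. The fitted fold change was below 0 for 21 of 26 genes (80.8%), against 50.5% of all tested genes, and the number ran from 18 to 24 over the 20 alternative settings tried. Summed over all 30 genes, the level was 1423, 1385 and 1403 CPM in the Zac1 libraries and 1470, 1484 and 1428 CPM in the EGFP libraries. The sums did not overlap, and the mean was 3.89% lower in Zac1 cells (1404 ± 19.1 CPM in Zac1 cells against 1461 ± 29.3 CPM in EGFP cells, SD, n = 3 each). No test was run on the sum. Gene by gene, 1 of 26 had groups that did not overlap (Acad9, lower in Zac1; 3.85%), against 20.6% of all tested genes and 8.75% for those lower in Zac1. In a bulk sample, fewer cells of a type and less RNA per cell cannot be told apart.

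**Figure D2:**
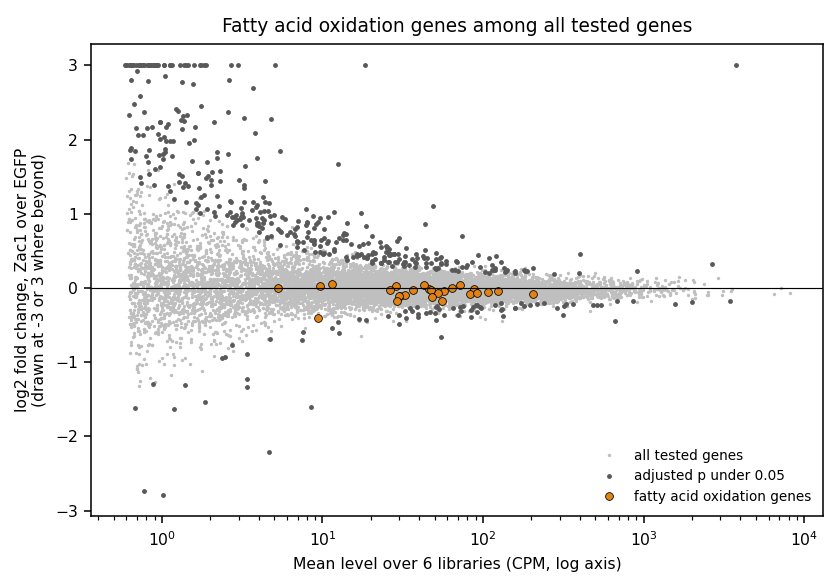
Fitted log2 fold change (Zac1 over EGFP, y axis, drawn at -3 or 3 where beyond) against mean level over the 6 libraries (CPM, log x axis) for the 12130 tested genes, with genes past the adjusted p threshold of 0.05 in dark grey and the 26 fatty acid oxidation genes in orange. The orange points run along 0 between -0.40 and 0.05.

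Levels differed far more between genes than between groups. Per length, on the TPM scale (counts per kilobase of transcript, scaled to a common total), Acadl was the highest gene of the set with 306, 283 and 284 TPM in Zac1 libraries and 319, 312 and 292 TPM in EGFP libraries. Etfa followed with 247 ± 15.6 TPM in Zac1 cells and 252 ± 12.5 TPM in EGFP cells, and Ech1 with 143 ± 5.45 TPM in Zac1 cells and 143 ± 12.0 TPM in EGFP cells (SD, n = 3 each). In the EGFP libraries each of these 3 stood clear of the next gene in order. By EGFP level, Acadvl came next, with 114 ± 2.09 TPM in Zac1 cells and 115 ± 8.50 TPM in EGFP cells. Hsd17b4, Eci1, Acaa2, Eci2 and Acadm followed, and then Hadha, with 74.2 ± 2.34 TPM in Zac1 cells and 76.9 ± 3.58 TPM in EGFP cells. From Acadvl to Hadha, each gene overlapped its neighbour in the EGFP libraries. In the Zac1 libraries not all did, as every Acadvl value lay above every Hsd17b4 value. At the low end, Acot2, Acad10 and Ehhadh had 10.4, 5.76 and 4.96 TPM in Zac1 cells and 13.8, 5.63 and 4.97 TPM in EGFP cells. The order was the same in both groups for all genes above 0 except Acadm and Hadha, which changed places.

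**Figure D3:**
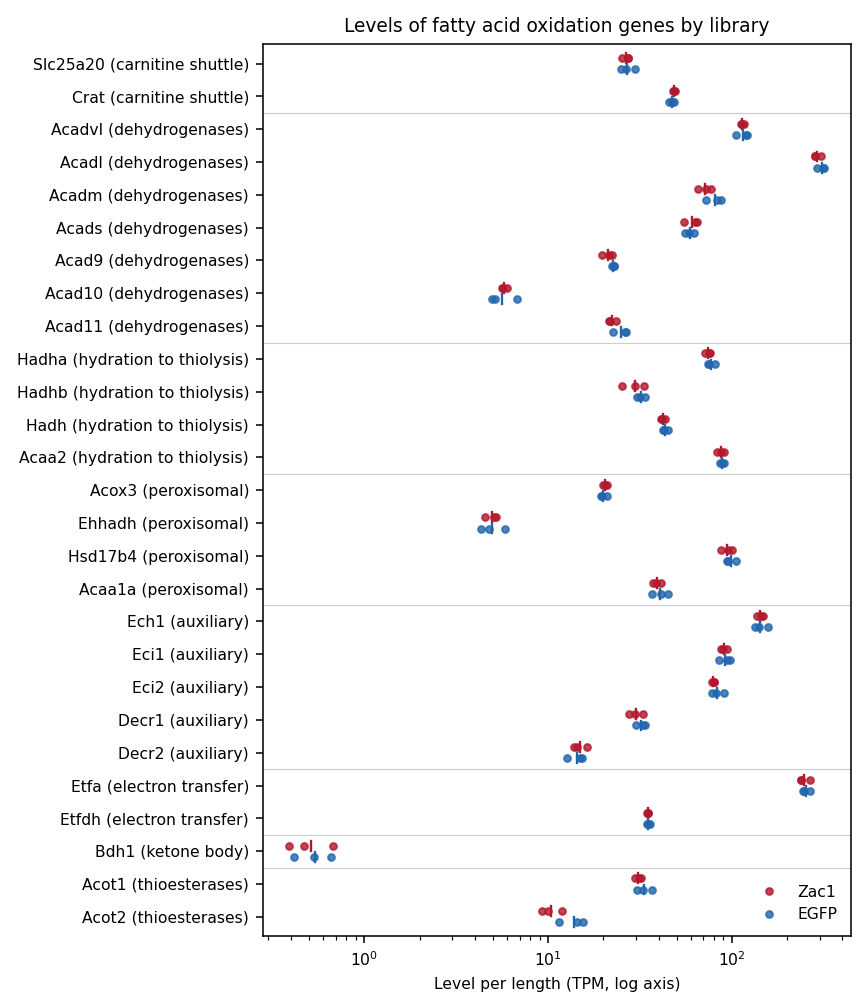
Level per length (TPM, log x axis) of the 27 genes with reads, by step down the page, with 1 point per library and a tick at the group mean, Zac1 in red above EGFP in blue. Levels span from about 0.5 TPM (Bdh1) to about 300 TPM (Acadl), while the 2 colours lie on top of each other in nearly every gene.

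The carnitine shuttle moves acyl groups across the inner mitochondrial membrane. Crat, carnitine acetyltransferase, which buffers acetyl-CoA as acetylcarnitine, had 72.8, 72.1 and 72.4 CPM in Zac1 libraries and 70.7, 68.4 and 72.9 CPM in EGFP libraries. The groups overlapped at EGFP 3, and the log2 fold change was 0.04 (SE 0.06, adjusted p = 0.816). Slc25a20, the carnitine/acylcarnitine translocase, averaged 26 ± 1.17 CPM in Zac1 cells and 26.4 ± 2.22 CPM in EGFP cells (SD, n = 3 each; log2 fold change -0.02). Its sign turned positive without EGFP 1 or Zac1 4.

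The acyl-CoA dehydrogenases catalyse the first step of each round, by chain length. Acadl, which acts on long chains and is known from rodents as a major liver enzyme, had 207, 192 and 194 CPM in Zac1 libraries and 216, 214 and 199 CPM in EGFP libraries. Zac1 4 lay above EGFP 3, so the groups overlapped, and the log2 fold change was -0.09 (SE 0.05, adjusted p = 0.467). Acadm, the medium-chain dehydrogenase (chromosome 3, 153922357 to 153944632, minus strand), had 55.7, 52.8 and 47.5 CPM in Zac1 libraries and 63.3, 53.2 and 60.4 CPM in EGFP libraries. EGFP 2 lay within the range of the Zac1 libraries and the other EGFP libraries lay above it. The log2 fold change was -0.18 (SE 0.08), with an unadjusted p of 0.0369 and an adjusted p of 0.273.

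Acad11, a dehydrogenase of long and very long chains (chromosome 9, 104063377 to 104127725, plus strand), had 28.7, 26.2 and 26.8 CPM in Zac1 libraries and 27.5, 32.3 and 32.5 CPM in EGFP libraries. Only EGFP 1 fell among the Zac1 libraries. The log2 fold change was -0.18 (SE 0.08, adjusted p = 0.328), and the gene passed as lower in Zac1 under library quality weights (adjusted p = 0.0478) and without Zac1 4 and EGFP 1 (adjusted p = 0.0165), with a range of 0.0165 to 0.684 over the alternatives. Acad9, which in mitochondria serves chiefly as an assembly factor of respiratory complex I (chromosome 3, 36065979 to 36092853, plus strand), had 27.3, 30.9 and 29.98 CPM in Zac1 libraries and 31.7, 31.4 and 31.9 CPM in EGFP libraries. All Zac1 values lay below all EGFP values, by little for Zac1 5. The log2 fold change was -0.11 (SE 0.07, adjusted p = 0.533).

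The remaining dehydrogenases lay closer together in both groups. Acadvl, the very-long-chain enzyme of the inner membrane, averaged 87.7 ± 2 CPM in Zac1 cells and 88.8 ± 6.64 CPM in EGFP cells. Acads, the short-chain enzyme, averaged 43.7 ± 3.65 CPM in Zac1 cells and 42.4 ± 2.66 CPM in EGFP cells, and Acad10 9.70 ± 0.373 CPM in Zac1 cells and 9.51 ± 1.72 CPM in EGFP cells (SD, n = 3 each). The log2 fold changes of these 3 genes lay between -0.02 and 0.04, and each changed sign under at least 1 alternative. Exons of Acadvl share 42.9% of their bases with Dvl2 on the opposite strand, a gene with a mean count of 464, and the sources do not state whether counting used strand.

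The chains are then hydrated, oxidised and cleaved. Hadha and Hadhb are the subunits of the mitochondrial trifunctional protein, which carries out these steps on long chains, and they lie on opposite strands of chromosome 5 with the shared start region printed above (Hadha 30118304 to 30155162, Hadhb 30155248 to 30184593). Hadhb had 51.7, 46.5 and 39.5 CPM in Zac1 libraries and 52.4, 48.1 and 49.4 CPM in EGFP libraries. Zac1 6 was the lowest library and Zac1 4 lay among the EGFP libraries, and the log2 fold change was -0.12 (SE 0.09, adjusted p = 0.528). Hadha averaged 106 ± 3.32 CPM in Zac1 cells and 110 ± 5.72 CPM in EGFP cells (log2 fold change -0.06, SE 0.06). The ratio of Hadha to Hadhb per length was 2.55 ± 0.38 in Zac1 cells and 2.41 ± 0.22 in EGFP cells (SD, n = 3 each), a difference smaller than its spread.

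Acaa2, the mitochondrial thiolase and the highest of this step per length, had 48.5, 44.8 and 47.0 CPM in Zac1 libraries and 48.6, 47.8 and 46.4 CPM in EGFP libraries. The groups overlapped, with a log2 fold change of -0.03 (SE 0.06). Hadh, the dehydrogenase for shorter hydroxyacyl-CoAs, averaged 55.9 ± 1.42 CPM in Zac1 cells and 57.6 ± 2.47 CPM in EGFP cells. All 4 genes of these steps had fold changes below 0, the lowest at -0.12, and 0 of 4 passed the test.

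Peroxisomal beta-oxidation was represented by an oxidase, both bifunctional proteins and a thiolase. Hsd17b4, the D-bifunctional protein of very-long and branched chains, had 94.4, 83.5 and 90.6 CPM in Zac1 libraries and 100.3, 90.8 and 91.3 CPM in EGFP libraries. Zac1 4 lay above EGFP 2 and 3, and the log2 fold change was -0.07 (SE 0.06, adjusted p = 0.625). Ehhadh, the L-bifunctional protein and a target of PPARalpha in mouse liver, was low, with 4.80, 5.52 and 5.39 CPM in Zac1 libraries and 4.53, 5.10 and 6.15 CPM in EGFP libraries. Its fold change was -0.0046 on the log2 scale, with a 95% interval from 0.787-fold to 1.26-fold. Per length, Hsd17b4 exceeded Ehhadh 19.1 ± 2.56-fold in Zac1 cells and 20.3 ± 4.07-fold in EGFP cells. Acaa1a, a thiolase, averaged 50.9 ± 3.01 CPM in Zac1 cells and 53.3 ± 5.50 CPM in EGFP cells, and Acox3, an oxidase for branched chains, 28.8 ± 0.625 CPM in Zac1 cells and 28.3 ± 0.982 CPM in EGFP cells (SD, n = 3 each). Of the 50-base stretches of the Acaa1a transcript, 15.6% also occur in its paralog Acaa1b, so its level is less certain.

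Auxiliary enzymes move or reduce the double bonds of unsaturated acids. Ech1, a dienoyl-CoA isomerase, had 61.2, 64.5 and 66.8 CPM in Zac1 libraries and 59.7, 70.9 and 62.8 CPM in EGFP libraries. The Zac1 libraries lay inside the EGFP range. Eci2, an enoyl-CoA isomerase, had 80.7, 81.9 and 79.6 CPM in Zac1 libraries and 91.6, 83.9 and 80.0 CPM in EGFP libraries. Zac1 4 and Zac1 5 lay above EGFP 3, and the log2 fold change was -0.08 (SE 0.06, adjusted p = 0.588). Decr1, the mitochondrial dienoyl-CoA reductase, had 28.7, 34.5 and 31.3 CPM in Zac1 libraries and 31.4, 35.6 and 34.3 CPM in EGFP libraries. Both groups spread over a similar width, and the log2 fold change was -0.10 (SE 0.08, adjusted p = 0.622). Eci1, a mitochondrial enoyl-CoA isomerase, averaged 36.4 ± 1.67 CPM in Zac1 cells and 37.3 ± 2.7 CPM in EGFP cells. Decr2, the peroxisomal reductase, averaged 11.7 ± 1.09 CPM in Zac1 cells and 11.3 ± 1.14 CPM in EGFP cells (SD, n = 3 each).

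Electrons from the acyl-CoA dehydrogenases pass through the electron transfer flavoprotein, made of Etfa and Etfb, to its oxidoreductase Etfdh. Etfa had 130, 118 and 117 CPM in Zac1 libraries and 131, 124 and 120 CPM in EGFP libraries. The groups overlapped at Zac1 4, which was nearly as high as EGFP 1, and the log2 fold change was -0.04 (SE 0.06). Etfdh averaged 46.1 ± 0.702 CPM in Zac1 cells and 46.6 ± 0.593 CPM in EGFP cells (SD, n = 3 each). Etfb was listed at 0 in every library, although its partner was the second highest gene of the set. In GENCODE M21, 53.0% of the exon bases of Etfb also belong to Gm45233 on the same strand, which was at 0 as well. Of protein-coding genes with 25% or more of such overlap 49.2% were at 0 in all libraries, against 26% of those with none. The part of the overlap in the 0 of Etfb was not tested, and a count of 0 allows up to 3 reads per library.

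**Figure D4:**
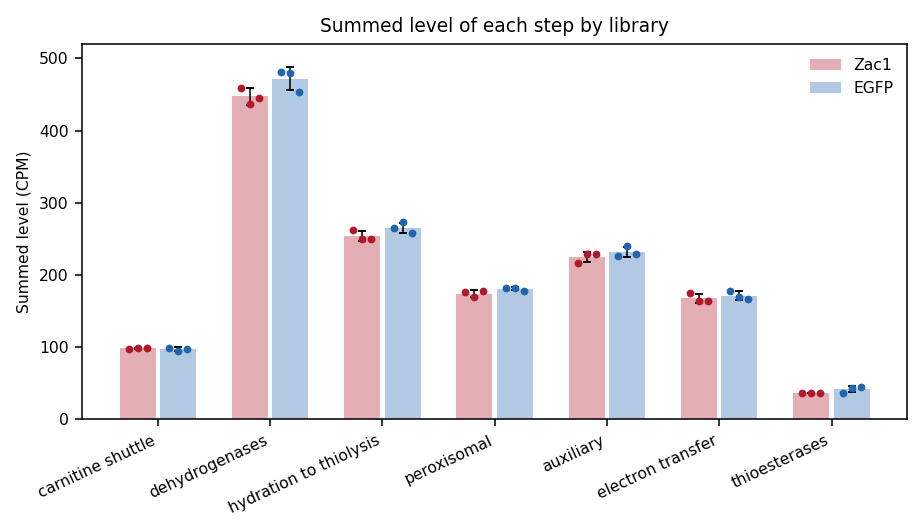
Summed level of the genes of each step (CPM, y axis from 0), with bars for the group mean, whiskers for the SD (n = 3) and 1 point per library, Zac1 left of EGFP. Dehydrogenases summed to 447 CPM in Zac1 cells and 472 CPM in EGFP cells, and of the 7 steps drawn, the means of all but the carnitine shuttle were lower in Zac1 cells.

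Acyl-CoA thioesterases release free fatty acids from acyl-CoA, Acot1 in the cytosol and Acot2 in mitochondria. Acot2 (chromosome 12, 83987861 to 83993873, plus strand) had 7.16, 7.81 and 9.36 CPM in Zac1 libraries and 8.86, 12.2 and 11.1 CPM in EGFP libraries. Zac1 6 lay above EGFP 1, and all other Zac1 values lay below all EGFP values. The log2 fold change was -0.40 (SE 0.15), the lowest of the set, with a 95% interval from 0.611-fold to 0.940-fold and an adjusted p of 0.174. It passed as lower in Zac1 under library quality weights (adjusted p = 0.0306) and without Zac1 4 and EGFP 1 (adjusted p = 0.0237), the same settings as Acad11, with a range of 0.0237 to 0.463 over the alternatives. No other gene of the set passed under any of the 20 alternatives. Those settings raised the calls over all genes too, to 797 higher and 500 lower with weights and to 853 higher and 608 lower without the pair of libraries.

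Acot1 (chromosome 12, 84009490 to 84018371, plus strand) lies 15616 bases from Acot2 and had 29.5, 28.8 and 27.7 CPM in Zac1 libraries and 28.0, 30.8 and 33.9 CPM in EGFP libraries. EGFP 1 lay among the Zac1 libraries, and the log2 fold change was -0.11 (SE 0.08, adjusted p = 0.561). Of the 50-base stretches of the Acot2 transcript, 24.6% also occur in Acot1, and 17.6% of those of Acot1 occur in Acot2, so the split of reads between these copies is uncertain. The ratio of Acot1 to Acot2 per length was 3.01 ± 0.49 in Zac1 cells and 2.44 ± 0.29 in EGFP cells (SD, n = 3 each), and the ratios of the groups overlapped.

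Enzymes at the edges of the pathway were at or near the floor. Bdh1, which interconverts the ketone bodies acetoacetate and beta-hydroxybutyrate, had 7, 9 and 14 reads in Zac1 libraries and 7, 9 and 11 reads in EGFP libraries. Cyp4a10 and Cyp4a14, omega-hydroxylases that are strongly induced through PPARalpha in mouse liver, were listed at 0 in all 6 libraries, which allows up to 3 reads each per library. Of the 50-base stretches of Cyp4a10, 25% also occur in Cyp4a32.

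Around these genes, 7 lists of the same metabolism held 79 tested genes, of which 1 passed as higher and 2 as lower in Zac1 cells. Over all tested genes, 3.12% passed as higher and 0.668% as lower. Among 11 tested genes of fatty acid uptake, activation and mitochondrial entry (of 18 listed) 0 passed, with a median log2 fold change of 0.02. The smallest p values belonged to Slc22a5, a carnitine importer, and Acsl1, an acyl-CoA synthetase. Slc22a5 had a log2 fold change of 0.27 (adjusted p = 0.236). It passed under library quality weights (0.0234) and without Zac1 4 and EGFP 1 (0.00437). Acsl1 had a log2 fold change of 0.19 (adjusted p = 0.315). Cpt1a, the entry enzyme of the carnitine shuttle, had 328, 345 and 342 CPM in Zac1 libraries and 332, 358 and 353 CPM in EGFP libraries. The groups overlapped and the log2 fold change was -0.04 (SE 0.05, adjusted p = 0.752).

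In the list of other peroxisomal enzymes, 0 of 15 tested genes rose and 2 fell, with a median log2 fold change of -0.09. Of all tested genes, 3.12% rose and 0.668% fell. Cat, the catalase that breaks down the hydrogen peroxide made by peroxisomal oxidases, had 432, 452 and 445 CPM in Zac1 libraries and 520, 512 and 525 CPM in EGFP libraries. The groups lay well apart; the log2 fold change was -0.23 (SE 0.04, adjusted p = 0.00883); the call was lost without EGFP 3 (adjusted p = 0.0571) or Zac1 5 (adjusted p = 0.0693), and over the alternatives p ran from 0.000357 to 0.0693. Acot4, a peroxisomal thioesterase, was low, at 2.30, 2.06 and 1.74 CPM in Zac1 libraries and 3.40, 3.49 and 3.51 CPM in EGFP libraries. Its log2 fold change was -0.77 (SE 0.20, adjusted p = 0.0459). That call was lost with upper-quartile scaling (adjusted p = 0.0515), with DESeq2 (0.184) and without EGFP 1, 2 or 3 or Zac1 5 or 6, with a range of 0.0122 to 0.214 over the alternatives.

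The 21 tested regulators included 1 that rose and 0 that fell, beside 3.12% and 0.668% of all tested genes. Their median log2 fold change was 0.05, and 8 of the 21 lay below 0, against 50.5% of all tested genes. At an unadjusted edgeR p under 0.05 there were 7 of the 21, against 15.8% of all tested genes. Acacb, the acetyl-CoA carboxylase whose product malonyl-CoA inhibits carnitine palmitoyltransferase 1, had 1.43, 3.23 and 1.85 CPM in Zac1 libraries and 0.799, 0.336 and 0.203 CPM in EGFP libraries. Every Zac1 value exceeded every EGFP value, and the log2 fold change was 2.26 (SE 0.45, adjusted p = 0.0102). Its EGFP libraries held only 12, 5 and 3 reads, and its mean count of 22 kept it out of the fit with a minimum of 50. It missed the threshold once EGFP 3 (0.086) or Zac1 5 (0.0592) was left out. Over the other alternatives the adjusted p ran from 2.05e-09 to 0.086. The lowest came from the fit without Zac1 4 and EGFP 1, in which a gene's own spread hardly entered. The log2 fold change was 2.98 without EGFP 1, 1.87 without Zac1 5 and 3.19 without Zac1 4 and EGFP 1 together. Ppara, which encodes PPARalpha, had 15.7, 14.4 and 15.4 CPM in Zac1 libraries and 11.0, 13.9 and 10.3 CPM in EGFP libraries. Its groups did not overlap, but the difference did not pass the test (log2 fold change 0.37, SE 0.12, adjusted p = 0.117). Ppara passed without EGFP 2 (0.0317), with no filter on low counts (0.0328) and under library quality weights (0.0417). Pdk4, a kinase that inhibits pyruvate dehydrogenase, averaged 11.8 ± 1.22 CPM in Zac1 cells and 8.28 ± 1.41 CPM in EGFP cells (SD, n = 3 each; adjusted p = 0.0589). It passed without Zac1 4 (0.0203), without EGFP 3 (0.0492) and without Zac1 4 and EGFP 1 together (0.0131). Pdk4 also passed with no filter on low counts (0.00398) and under library quality weights (0.0104). With offsets for GC content it passed too (0.0381 with the robust curve, 0.0368 with the least-squares curve). Ppargc1a, a coactivator of mitochondrial genes, averaged 2.03 ± 0.456 CPM in Zac1 cells and 3.40 ± 0.464 CPM in EGFP cells (SD, n = 3 each, adjusted p = 0.0923). Ppargc1a passed as lower in Zac1 with no filter on low counts (0.0271). Its paralog Ppargc1b went the other way, at 2.75 ± 0.656 CPM in Zac1 cells and 1.72 ± 0.484 CPM in EGFP cells. The groups of Ppargc1b overlapped, with a log2 fold change of 0.68 (SE 0.27, edgeR adjusted p = 0.216).

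**Figure D5:**
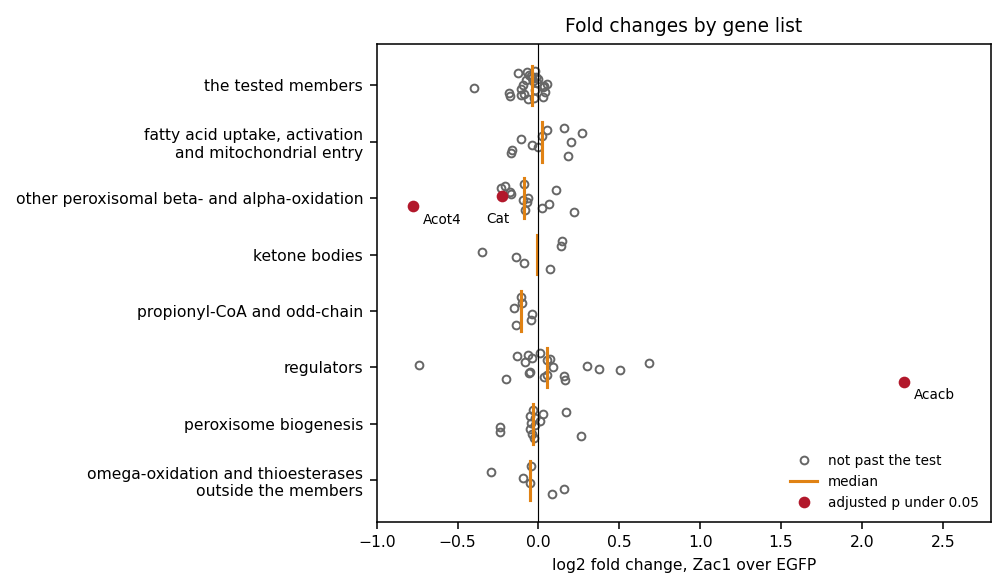
Fitted log2 fold change (Zac1 over EGFP, x axis) of each tested gene, for the 26 fatty acid oxidation genes and 7 further lists of the same metabolism down the page, with the median of each list in orange and genes past the adjusted p threshold of 0.05 filled. Acacb at 2.26, Cat at -0.23 and Acot4 at -0.77 are the filled points, and the fatty acid oxidation genes lie within -0.40 and 0.05.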

How the data were processed

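PolyA RNA of AML12 cells was measured in 6 libraries, 3 per construct, prepared with a directional kit per the labels' protocols. The authors deposited 1 table of counts per gene and library. The submitters' processing notes name FastQC, STAR, HTSeq and DESeq2; their settings, the genome build, the annotation and the strand used in counting are not stated in those sources. The deposited table is called normalized, but it was treated as unscaled counts, since it holds whole numbers only, the totals run from 14801240 to 18302538 per library, and each integer from 1 to 40 occurs in every library (0 absent). Precision depends on the counts and on the spread among libraries of a group. Tested fatty acid oxidation genes had mean counts of 84.2 to 3254.

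Symbols, coordinates, transcript lengths and overlaps come from GENCODE M21 (GRCm38), matched by gene ID for 49326 of 49585 genes. The 12130 genes averaging 10 counts or more were compared (Zac1 minus EGFP, two-sided) in edgeR 4.0.16 under R 4.3.3, with TMM scaling, glmQLFit, glmQLFTest and a prior count of 0.125. P-values were adjusted by Benjamini and Hochberg's method and held to 0.05. The SE is the log2 fold change divided by the square root of F. CPM uses TMM-scaled totals. TPM, computed from the counts and the longest transcript, compares genes with each other. Limits for counts of 0 cover counting error only. Libraries of a group differed beyond sampling noise (chi-square per degree of freedom 2.31 to 8.98). The scripts were tested on simulated data.

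The genes and lists were chosen with earlier results of these data known, so no list was tested as a set. Values in every library are given for the 10 genes of the set with the smallest p, for the highest of each step and for those below the minimum; of each further list, the genes past the test or else the 2 with the smallest p are named. Ppara, Ppargc1a, Pdk4 and Cpt1a were added for their roles, their values having been seen. Pparg, Ppard and Ppargc1b were added beside their paralogs, also with values seen, and were not followed through the alternatives. Alternatives were other filters, scalings and prior counts, DESeq2 1.42.0, limma 3.58.1, voom with quality weights, other variance settings, GC offsets, exon-union lengths and leaving out libraries.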

Additional observations from a re-analysis of the deposited data

How the results depend on the processing

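Over all named genes and settings, 11 calls were lost and 24 gained, without a change of sign. Of the gained calls 7 were for Pdk4 and 3 for Ppara, both higher in Zac1 cells, and 4 for Pex13, lower. Under all 20 alternatives 0 fatty acid oxidation genes passed as higher. The number lower was 0 except for 2 (Acad11 and Acot2) with voom quality weights and 2 without EGFP 1 and Zac1 4 together. The number with a fold change above 0 (5) became 2 with least-squares GC offsets and 2 to 8 when 1 library was left out. Over all genes, calls higher and lower (378 and 81) became 190 and 51 with a minimum mean count of 50, 731 and 248 with no filter, 797 and 500 with voom weights, 853 and 608 without EGFP 1 and Zac1 4, and 187 to 584 and 19 to 379 without 1 library; with least-squares GC offsets 198 were lower.

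All log2 fold changes that changed sign were small, and none of these passed. With upper-quartile scaling Ehhadh came to 0.011 and Ech1 to 0.0087. With library totals alone Ehhadh came to 0.00097, and with limma to 0.00022. Voom weights gave Slc25a20 0.031, Acadvl 0.00093, Acads -0.017 and Ech1 0.0014. Robust GC offsets gave Crat -0.0061, Acads -0.051, Acox3 -0.0047, Ehhadh 0.013 and Etfdh 0.029. Least-squares GC offsets gave Crat -0.033, Acads -0.12, Acad10 -0.022, Acox3 -0.029 and Etfdh 0.018. Without EGFP 1 and Zac1 4 the values were Slc25a20 0.084, Acadvl 0.026, Acad10 -0.032 and Etfdh 0.0095. With 1 library left out at a time, 11 genes crossed 0: Slc25a20 ran from -0.081 to 0.048, Acadvl from -0.083 to 0.017, Acads from -0.0073 to 0.11, Acad10 from -0.054 to 0.19, Acaa2 from -0.052 to 0.0063 and Ehhadh from -0.098 to 0.12. Likewise Acaa1a ran from -0.14 to 0.0099, Ech1 from -0.056 to 0.067, Eci1 from -0.086 to 0.0069, Decr2 from -0.026 to 0.10 and Etfa from -0.086 to 0.0028. The cause was not tested. With exon-union lengths, 23 genes of the set were above 10 TPM in EGFP cells, against 24 with the longest transcript. No paired analysis was run, because the labels do not say whether libraries of the groups were made in matched rounds. The sample numbers run on across both groups and do not settle it. The 3 libraries per group limit the precision to the intervals given.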

Other observations

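Of 6 tested genes of the propionyl-CoA pathway, which takes up the 3-carbon ends of odd chains, 0 passed, beside 3.78% of all tested genes. All 6 had fold changes below 0, against 50.5% of all tested genes. Their median was -0.11 on the log2 scale, beside -0.002 over all tested genes. Mut, the methylmalonyl-CoA mutase, had 63.3, 59.2 and 60.3 CPM in Zac1 libraries and 69.3, 67.8 and 65.8 CPM in EGFP libraries. The groups did not overlap, but the difference did not pass the test (log2 fold change -0.15, SE 0.06, edgeR adjusted p = 0.221). Mut passed under library quality weights (voom adjusted p = 0.0489). Pcca, a subunit of propionyl-CoA carboxylase, averaged 38.8 ± 1.19 CPM in Zac1 cells and 41.7 ± 1 CPM in EGFP cells (SD, n = 3 each; edgeR adjusted p = 0.477).

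Among 14 tested genes of peroxisome biogenesis 0 passed, beside 3.78% of all tested genes, with a median log2 fold change of -0.03. Pex13, a docking protein of peroxisomal import, had 39.2, 38.2 and 40.4 CPM in Zac1 libraries and 47.3, 45.5 and 46.3 CPM in EGFP libraries, or -0.24 on the log2 scale (edgeR adjusted p = 0.0541). It passed without Zac1 4 (0.0494) and without Zac1 4 and EGFP 1 together (0.0438). Pex13 also passed with median-of-ratios scaling (0.0498) and under library quality weights (0.00888). Pex5, the import receptor, averaged 56.5 ± 0.430 CPM in Zac1 cells and 50.3 ± 2.63 CPM in EGFP cells (SD, n = 3 each, edgeR adjusted p = 0.194). It passed under library quality weights (voom adjusted p = 0.0437). Pex6 was listed at 0 in all 6 libraries, and it shares no exon bases with another gene. Among the 6 tested genes of ketone body metabolism 0 passed (median -0.01), beside 3.78% of all tested genes. Oxct1, which activates acetoacetate, was at 0.14 on the log2 scale (edgeR adjusted p = 0.387). Acat1, an acetoacetyl-CoA thiolase, was at -0.09 (edgeR adjusted p = 0.569). Of the 6 tested omega-oxidation and thioesterase genes outside the set 0 passed (median -0.05), beside 3.78% of all tested genes. Acot7, a thioesterase, was at 0.16 (edgeR adjusted p = 0.224, and 0.0105 without Zac1 4 and EGFP 1). Cyp4f13 was at -0.29 (edgeR adjusted p = 0.298).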
